A study of Mus musculus with 9 samples.

Results

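The TGF-beta, BMP and activin pathway was followed through 53 named genes of the 47643 genes in the count files. The members were ligands, latent complex proteins, receptors, extracellular antagonists, Smads, corepressors and direct targets. They were placed in a TGF-beta/activin arm of 23 genes, a BMP arm of 21 genes and 7 genes that serve both arms. Gdf15, a distant family member, and Bmp1, a procollagen protease, made up the other 2. All 53 were found in the count files by their symbol, and 49 had at least 100 reads over the 9 libraries and were tested. Inha, Bmp5, Nog and Smad9 had fewer, with 20, 36, 59 and 4 reads in all.

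The libraries were made from PDAC (pancreatic ductal adenocarcinoma) cells sorted from mouse tumors. Mice of both groups carried Trp53 frt/+, Pdx-Flp and R26 FSF-CreER/Dual, so that Flp driven by the Pdx promoter removed Trp53 and marked the cells with GFP. KPYYF mice also carried Yap flox/flox. By the study's methods, mice of both groups were given tamoxifen (TAM) in the diet once tumors could be felt, which activates CreER and replaces GFP with tdTomato (Tm), and in KPYYF cells also deletes Yap. The 6 KPF libraries were GFP+Yap+ cells, in which the reporter had not recombined, and the 3 KPYYF libraries were Tm+Yap- cells from nodules that relapsed after Yap loss. Genotype, Yap status, reporter recombination and relapse therefore changed together and cannot be told apart. KPF 4504h and 4504s carry the same mouse number, and mice of both sexes and of a wide range of ages were used, with no age or sex given per library in the sources used here. The p-values measure the spread between these sorted libraries.

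Ligands of this family are secreted dimers that bring together a type I and a type II receptor kinase. TGF-beta and activin receptors phosphorylate Smad2 and Smad3, BMP receptors phosphorylate Smad1, Smad5 and Smad9, and both sets enter the nucleus with Smad4. TGF-beta leaves the cell bound in a latent complex, follistatin and gremlin trap activins and BMPs outside the cell, and Smad6 and Smad7 are induced as feedback inhibitors. In the pancreas the pathway is known for growth arrest of epithelial cells and for epithelial to mesenchymal transition, and Smad4 and Tgfbr2 are recurrently inactivated in pancreatic cancer.

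Yap1, the deleted gene, was at 41.7 to 150 CPM (reads of a gene scaled to a fixed library size, after TMM) in KPF and at 0.711, 2.84 and 7.10 CPM in the 3 KPYYF libraries. Its log2 fold change was -4.79 (SE 0.72, adjusted p = 0.0159 by the quasi-likelihood test of edgeR), with Benjamini-Hochberg adjustment over 14105 genes. The reads come from the 3′ ends of transcripts, and the position of the deleted part is not given in the sources used here. Each library held 8116539 to 9635514 reads on genes. Epithelial tumor cell markers summed to 3218 to 10700 CPM in KPF and to 622 to 1895 CPM in KPYYF, with Krt18, Cdh1 and Muc1 lower at adjusted p = 0.0141, 0.0351 and 0.0422. Immune markers summed to 8228 CPM in KPF 4601 and 2521 CPM in KPF 4504s and to 412 to 714 CPM in the other 7, and acinar markers to 19154 CPM in KPF 4504s and 5276 CPM in KPYYF 4449. Xist, which is made in female cells, had at least 1000 reads in 6 libraries, KPF 4435, 4504h and 4504s and all 3 of KPYYF.

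No member had an adjusted p under 0.05 in edgeR's quasi-likelihood test, where 1.10% of all genes tested did. At an unadjusted p under 0.05, 5 members were higher in KPYYF (background 6.10% of all genes tested) and 9 were lower (background 10.0%), of 49. The higher members were Tgfbr3, Fst, Bmpr1b, Grem1 and Id3. Bmpr1b reached the minimum of 100 reads through KPYYF, with 11 reads in KPF and 117 in KPYYF, and Eng, Acvrl1 and Smad6 through KPF, with 39, 59 and 6 reads in KPYYF, so these counts are a description. The lower members were Ltbp3, Ltbp4, Tgfbr1, Eng, Acvr1b and Pmepa1 of the TGF-beta/activin arm and Acvrl1, Smad6 and Id2 of the BMP arm. The Wald test of DESeq2 gave an adjusted p under 0.05 for 1 higher (background 1.91%) and 6 lower members (background 6.58%), Tgfbr3 and then Ltbp3, Ltbp4, Eng, Acvrl1, Smad6 and Id2, and limma-voom gave it for 0. DESeq2 gave no p-value for Id3 (log2 fold change 2.43), so Id3 could not be called by it. The groups did not overlap in 6 members, Tgfbr3 higher in KPYYF (background 3.92%) and Ltbp3, Eng, Ski, Smad6 and Id2 lower (background 5.18%).

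The median log2 fold change was -0.39 over the 22 tested genes of the TGF-beta/activin arm, -0.24 over the 18 of the BMP arm and 0.18 over the 7 shared genes, beside -0.07 over all genes tested. Below 0 were 15 of the 22, 11 of the 18 and 3 of the 7, where 53.3% of all genes tested were. By role, 4 of the 5 TGF-beta/activin receptors were below 0. Eng, counted among these 4, was placed in this arm although its product binds BMP ligands, as given below with Acvrl1. All 3 tested BMP antagonists were above 0, of which Chrd and Fstl1 changed sign in other fits.

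**Figure D1:**
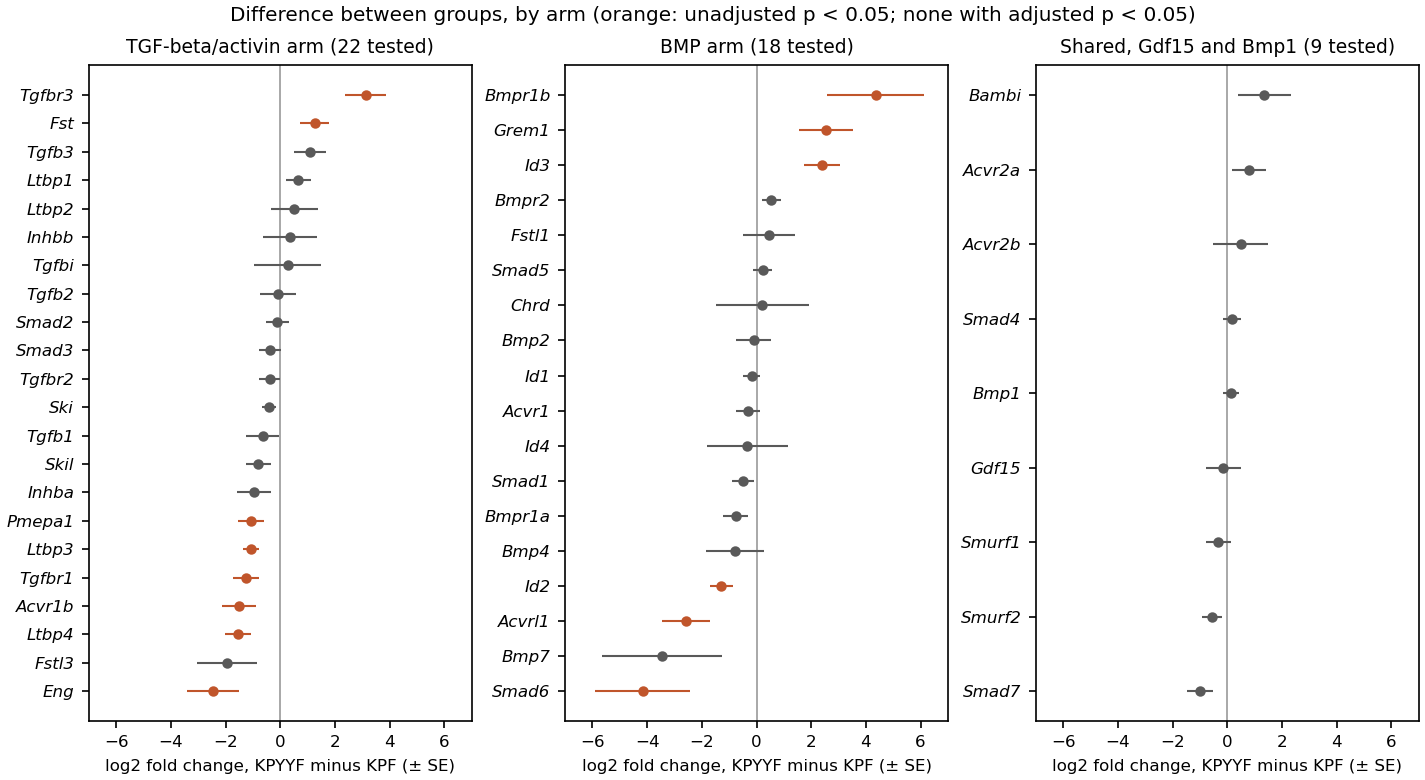
Log2 fold change (KPYYF minus KPF, x axis) of each tested member (y axis) with its standard error, in 3 panels for the TGF-beta/activin arm, the BMP arm and the other members. Orange points have an unadjusted p under 0.05, and they run from Eng at -2.47 to Tgfbr3 at 3.12 in the first panel and from Smad6 at -4.15 to Bmpr1b at 4.36 in the second.

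Values of single libraries are given in CPM in the order KPF 4269, 4435, 4504h, 4504s, 4515 and 4601, and then KPYYF 4449, 4891 and 4938. The 5 tested ligands of the TGF-beta/activin arm had reads in every library, and their groups overlapped. Tgfb1, the most studied ligand, ran from 9.60 to 55.0 CPM in KPF and from 6.43 to 19.2 CPM in KPYYF (log2 fold change -0.65, SE 0.61, adjusted p = 0.67). The highest Tgfb1 value was in KPF 4601, the library with the most immune marker reads, and their part in it was not tested. Tgfb2 ran from 7.47 to 67.4 CPM and from 13.4 to 41.0 CPM, and Tgfb3 from 3.98 to 22.7 CPM and from 16.6 to 61.0 CPM. Tgfb3 had the largest positive log2 fold change of the ligands, 1.09 (SE 0.59, adjusted p = 0.387).

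Activin A is a dimer of the Inhba product, and activin B of the Inhbb product. Inhba was at 18.3 to 138 CPM in KPF and 16.1 to 47.9 CPM in KPYYF (log2 fold change -0.96, SE 0.61, adjusted p = 0.488). Inhbb was at 0.0970 to 22.2 CPM and at 9.05 to 12.02 CPM. Inha, whose product turns an activin subunit into inhibin, had reads in 3 KPF libraries, 8, 7 and 5, and none in KPYYF, which allows up to 0.291 to 0.436 CPM by 3 reads a library.

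Latent TGF-beta binding proteins hold the inactive ligand in the matrix. Ltbp3 (ENSMUSG00000024940, GRCm38 chr19:5740904-5758532) was at 235, 315, 211, 217, 234 and 212 CPM in KPF and at 141, 124 and 72.1 CPM in KPYYF. All 3 KPYYF values lay below the KPF range, and the log2 fold change was -1.08 (SE 0.29, unadjusted p = 0.00239, adjusted p = 0.0933). Ltbp4 (chr7:27305136-27337692) was at 38.8, 104, 93.8, 50.9, 80.2 and 47.8 CPM and at 12.9, 41.0 and 16.8 CPM. Only KPYYF 4891 reached into the KPF range, and the log2 fold change of Ltbp4 was -1.55 (SE 0.48, unadjusted p = 0.00600, adjusted p = 0.129), and -2.22 without KPYYF 4891. Both genes had an unadjusted p under 0.05 in all 18 alternatives, and the adjusted p ran from 0.0105 to 0.258 for Ltbp3 and from 0.0255 to 0.315 for Ltbp4. The other 2 family members were above 0, although Ltbp2 turned below 0 without KPYYF 4449. Ltbp1 ran from 40.8 to 219 CPM in KPF and from 126 to 183 CPM in KPYYF (log2 fold change 0.67, SE 0.45), and Ltbp2 from 1.94 to 41.8 CPM and from 6.78 to 52.1 CPM.

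The receptors were the role with the widest spread in the TGF-beta/activin arm. Tgfbr3 encodes betaglycan, a co-receptor that presents TGF-beta2 and binds inhibin. It lies at chr5:107106570-107289629 (ENSMUSG00000029287) and was at 6.01, 2.76, 20.4, 26.4, 6.29 and 2.47 CPM in KPF and at 38.2, 183 and 58.3 CPM in KPYYF. Every KPYYF library was above every KPF library, with a log2 fold change of 3.12 (SE 0.77, unadjusted p = 0.00173, adjusted p = 0.0851), the smallest p of the 49 members. Its log2 CPM gave p = 0.0119 in a two-sided exact permutation test, the smallest that 6 against 3 libraries allow. The other members without overlap were at or near this floor too (0.0238 for Ski and Id2 in the same test). This p therefore restates the lack of overlap and is no separate support. The unadjusted p stayed under 0.05 in all 18 alternatives, and the adjusted p ran from 0.00136 to 0.294. Without KPYYF 4891 the log2 fold change was 2.17. Of 10 fibroblast markers 5 were above and 5 below 0, with a median log2 fold change of 0.06, from C3 at -2.56 (adjusted p = 0.169) to Pdgfra at 2.90 (adjusted p = 0.105), which was highest in KPYYF 4891, as was Tgfbr3. The summed markers overlapped, at 257 to 2324 CPM in KPF and 389 to 1558 CPM in KPYYF, and their part was not tested.

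The signalling receptors did not share this direction. Tgfbr1, the type I receptor for TGF-beta (chr4:47353222-47414931), was at 103, 60.8, 36.4, 36.2, 71.0 and 44.9 CPM in KPF and at 17.9, 15.0 and 40.8 CPM in KPYYF. KPYYF 4938 lay within the KPF range, and the log2 fold change was -1.25 (SE 0.46, unadjusted p = 0.0179, adjusted p = 0.198). It was not under an unadjusted p of 0.05 without KPYYF 4449 or without KPYYF 4891. The unadjusted p was 0.0558 with limma-voom and 0.130 with edgeR in the 6 libraries with a high Xist level. Tgfbr2, the type II receptor, overlapped at 48.2 to 101 CPM and 25.5 to 82.9 CPM (log2 fold change -0.39, SE 0.39). Acvr1b, the type I receptor for activin (chr15:101174067-101213684), was at 39.5, 29.9, 28.0, 13.5, 8.06 and 13.5 CPM and at 11.6, 6.43 and 5.14 CPM. KPF 4515 lay among the KPYYF values, and the log2 fold change was -1.52 (SE 0.61, unadjusted p = 0.0281, adjusted p = 0.238). Its unadjusted p was under 0.05 in 4 of the 9 fits with a library left out, and it was lost without KPF 4269, 4435 or 4504h or without KPYYF 4891 or 4938. With limma-voom the unadjusted p was 0.0777.

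Eng and Acvrl1 encode endoglin and ALK1, a co-receptor and a type I receptor that are best known from endothelial cells and that bind BMP9 and BMP10. Eng (chr2:32646595-32682669) was at 3.78, 8.79, 2.96, 14.3, 8.06 and 10.8 CPM in KPF and at 1.30, 0.872 and 2.19 CPM in KPYYF, which was 8 to 20 reads a library. The groups did not overlap (log2 fold change -2.47, SE 0.95, unadjusted p = 0.0224, adjusted p = 0.218), and the unadjusted p was no longer under 0.05 without KPF 4504s, without KPYYF 4891 or among the 6 libraries with a high Xist level (unadjusted p = 0.0583 in edgeR). Acvrl1 (chr15:101128522-101145336) was at 2.23, 10.5, 9.79, 24.8, 10.0 and 21.1 CPM and at 0.829, 3.05 and 2.62 CPM. KPF 4269 lay among the KPYYF values, and the log2 fold change was -2.58 (SE 0.88, unadjusted p = 0.0118, adjusted p = 0.168). The 10 endothelial markers summed to 24.4 to 103 CPM in KPF and 24.6 to 47.4 CPM in KPYYF. The sum was highest in KPF 4504s and lowest in KPF 4269, which were also the highest and lowest KPF libraries for Acvrl1. Within KPYYF the order differed, since KPYYF 4449 had the highest sum, 47.4 CPM, and the lowest Acvrl1, 0.829 CPM. For Eng the highest library was also KPF 4504s, but the lowest KPF library was 4504h. Kdr had the largest negative log2 fold change of these markers, -3.40 (adjusted p = 0.180), Cdh5 was at 0.06, and no marker was at 0 in every library of a group. Without KPF 4504s, KPF 4601 and KPYYF 4449, the libraries with the most acinar or immune marker reads, the log2 fold changes were -1.91 for Eng (unadjusted p = 0.187) and -1.49 for Acvrl1 (unadjusted p = 0.200), and with limma-voom Acvrl1 had an unadjusted p of 0.0589. The part of the endothelial markers in the values of Eng and Acvrl1 was not tested, and fewer cells of a type and less RNA per cell cannot be told apart.

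Among the activin antagonists, Fst (follistatin, chr13:114452290-114458951) was at 8.73, 18.1, 34.8, 29.5, 54.4 and 10.9 CPM in KPF and at 35.3, 51.1 and 100 CPM in KPYYF. Only KPF 4515 reached the KPYYF range, and the log2 fold change was 1.25 (SE 0.54, unadjusted p = 0.0378, adjusted p = 0.272). Its unadjusted p held in 4 of the 9 fits with a library left out and was lost without KPF 4269, 4435 or 4601 or without KPYYF 4891 or 4938. Fstl3, a relative of follistatin, had a negative log2 fold change of -1.94 (SE 1.10, adjusted p = 0.43), at 20.6 to 72.5 CPM in KPF and 0 to 23.7 CPM in KPYYF.

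The Smads of this arm, Smad2 and Smad3, had log2 fold changes of -0.11 (SE 0.43) and -0.38 (SE 0.41). Ski, a corepressor that binds Smad complexes, was at 93.4, 110, 92.1, 103, 88.3 and 127 CPM in KPF and at 83.8, 79.9 and 69.2 CPM in KPYYF. The groups did not overlap, yet the difference was small (log2 fold change -0.40, SE 0.26, adjusted p = 0.486). Skil, its relative and a TGF-beta target, ran from 156 to 289 CPM and from 47.0 to 245 CPM, with KPYYF 4449 at the top. Its log2 fold change was -0.80 (SE 0.46, adjusted p = 0.438), and -1.82 (adjusted p = 0.0391) without KPYYF 4449, in a range of 0.0366 to 0.733 over 18 alternatives. Pmepa1, a target that restrains Smad signalling (chr2:173224458-173276533), was at 195, 573, 906, 771, 451 and 500 CPM and at 420, 124 and 265 CPM. KPF 4269 lay among the KPYYF values, and the log2 fold change was -1.07 (SE 0.47, unadjusted p = 0.0414, adjusted p = 0.281). The unadjusted p was lost without KPF 4435, 4504h or 4504s or without KPYYF 4891 or 4938. It was also lost with 4504h and 4504s, which carry the same mouse number, summed (unadjusted p = 0.0756 in edgeR). Tgfbi, a matrix protein named for its induction by TGF-beta, ran from 10.0 to 653 CPM in KPF, with the highest value in KPF 4601, and from 79.9 to 309 CPM in KPYYF. Its log2 fold change of 0.27 (SE 1.23) became 2.06 (unadjusted p = 0.0116, adjusted p = 0.173) without KPF 4601, 2.82 (adjusted p = 0.0726) without KPF 4504s, KPF 4601 and KPYYF 4449, and 1.51 among the 6 libraries with a high Xist level, with adjusted p from 0.0726 to 0.994 over 18 alternatives.

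**Figure D2:**
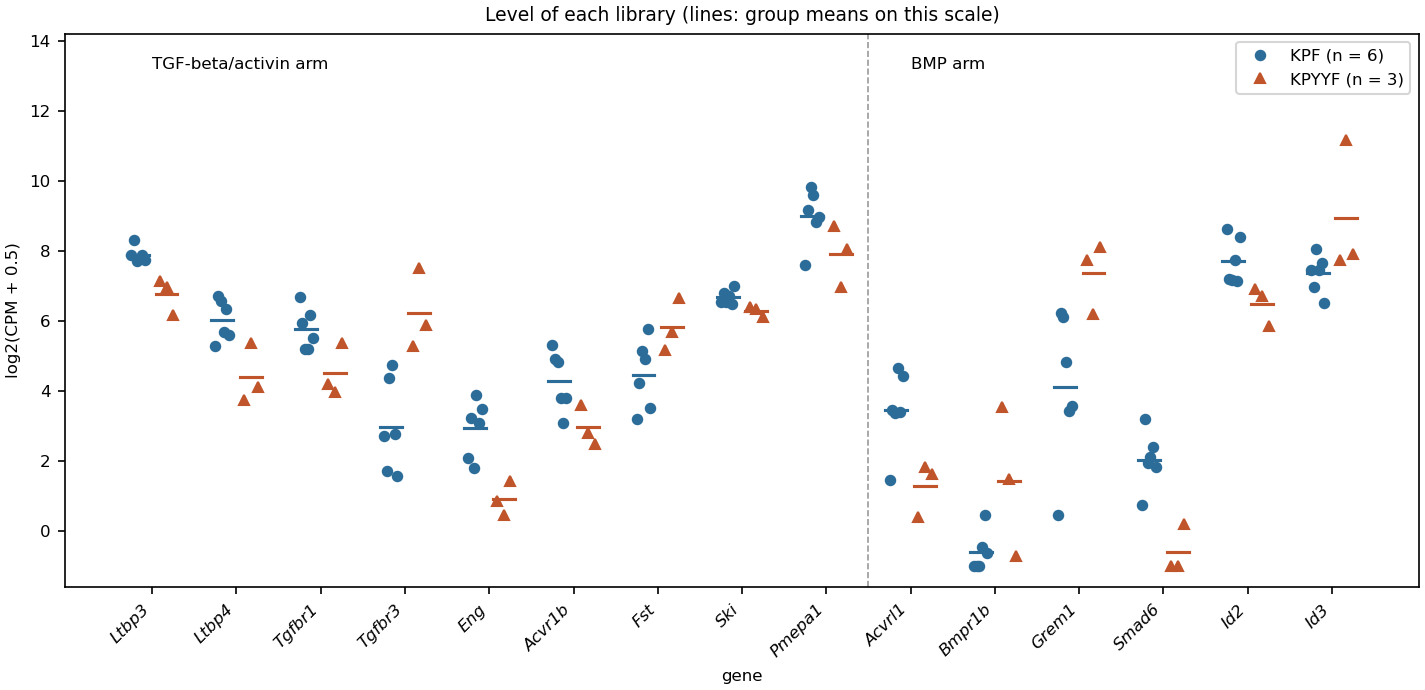
Level of the 15 members with an unadjusted p under 0.05 or no overlap between groups (x axis), as log2(CPM + 0.5) of each library (y axis), with blue circles for 6 KPF and orange triangles for 3 KPYYF libraries and lines at the group means. The 3 Tgfbr3 triangles lie above all circles, those of Ltbp3, Eng, Ski, Smad6 and Id2 lie below all circles, and 1 Id3 triangle, KPYYF 4891 at 2284 CPM, stands far above the other 2.

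In the BMP arm, Bmp2 and Bmp4 were the ligands with reads in every library. Bmp2 ran from 13.1 to 103 CPM in KPF and from 20.8 to 78.6 CPM in KPYYF (log2 fold change -0.10, SE 0.65). Bmp4 ran from 3.27 to 34.3 CPM and from 0.109 to 21.1 CPM (log2 fold change -0.79, SE 1.06). Bmp7 had at most 6.23 CPM in KPF and 0, 0 and 0.546 CPM in KPYYF (log2 fold change -3.45, SE 2.18, adjusted p = 0.479), and Bmp5 had 28 of its 36 reads in KPYYF 4449.

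The BMP receptors differed in direction. Bmpr1b, a type I receptor (chr3:141837136-142169425), was at 0, 0, 0, 0.227, 0.883 and 0.145 CPM in KPF and at 11.2, 2.29 and 0.109 CPM in KPYYF. KPYYF 4449 and 4891, with 95 and 21 reads, were above every KPF library, while KPYYF 4938 had 1 read. The log2 fold change was 4.36 (SE 1.77, unadjusted p = 0.0280, adjusted p = 0.237), and 5.69 in the 6 libraries with a high Xist level. It was 5.75 without KPF 4515, and without KPYYF 4449 the gene no longer had the 100 reads needed for a test. With limma-voom the log2 fold change of Bmpr1b was 2.47 (unadjusted p = 0.160). Bmpr1a, another type I receptor, overlapped with a log2 fold change of -0.76 (SE 0.46, adjusted p = 0.458), at 12.9 to 53.6 CPM and 19.3 to 27.7 CPM. Acvr1 (ALK2) was at 17.6 to 69.6 CPM and 18.8 to 37.1 CPM, and Bmpr2, the type II receptor, at 47.5 to 117 CPM and 70.4 to 141 CPM (log2 fold change 0.55, SE 0.35).

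Grem1 encodes gremlin, which binds BMP2 and BMP4 and keeps them from their receptors. It lies at chr2:113746164-113758646 and was at 0.873, 74.6, 68.4, 27.8, 10.3 and 11.3 CPM in KPF and at 213, 73.5 and 279 CPM in KPYYF. KPF 4435 was just above KPYYF 4891, so the groups overlapped in that pair, and KPF 4269 was lowest. The log2 fold change was 2.55 (SE 0.98, unadjusted p = 0.0272, adjusted p = 0.234), and the unadjusted p was lost without KPF 4601 or without KPYYF 4449 or 4938. In edgeR the unadjusted p was 0.0534 with no filter on low counts. With KPF 4504s, KPF 4601 and KPYYF 4449 left out together, edgeR gave an unadjusted p of 0.103. Grem1 is also made by fibroblasts, whose summed markers are given above with Tgfbr3. Chrd and Fstl1 overlapped over wide ranges, 0 to 7.36 CPM and 0 to 8.72 CPM for Chrd and 18.5 to 612 CPM and 147 to 862 CPM for Fstl1, and Nog had 58 of its 59 reads in KPF 4504s and 4515.

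Smad1 and Smad5, which carry the BMP signal, had log2 fold changes of -0.50 (SE 0.41) and 0.22 (SE 0.35), and Smad9 had 4 reads. Smad6, the feedback inhibitor that acts mainly on BMP receptors (ENSMUSG00000036867, chr9:63953076-64022059), was at 1.16, 8.68, 3.36, 3.86, 4.75 and 3.05 CPM in KPF, 12 to 85 reads a library. In KPYYF it was at 0, 0 and 0.656 CPM, which was 6 reads in KPYYF 4938 and none in the other 2. The groups did not overlap, with a log2 fold change of -4.15 (SE 1.74, unadjusted p = 0.0322, adjusted p = 0.253). The exact permutation p of 0.0119 restates this lack of overlap, as for Tgfbr3. The unadjusted p was lost without KPF 4435 or 4504s or without KPYYF 4449 or 4891, and without KPYYF 4938 no Smad6 read was left in KPYYF. Smad7, which acts on both arms, was at 20.6 to 75.3 CPM and 11.6 to 31.6 CPM (log2 fold change -1.01, SE 0.48, unadjusted p = 0.0552, adjusted p = 0.324).

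The Id genes are direct BMP targets that encode inhibitors of helix-loop-helix transcription factors, and the 4 did not share a direction. Id1 was at 89.0 to 152 CPM in KPF and 61.1 to 121 CPM in KPYYF, with only KPYYF 4938 below the KPF range (log2 fold change -0.17, SE 0.31, adjusted p = 0.843). Id2 (ENSMUSG00000020644, chr12:25093799-25097140) was at 397, 147, 144, 215, 141 and 339 CPM and at 121, 104 and 57.3 CPM. All 3 KPYYF values lay below the KPF range, with a log2 fold change of -1.29 (SE 0.42, unadjusted p = 0.00885, adjusted p = 0.152), and the unadjusted p held in all 18 alternatives. Id3 (ENSMUSG00000007872, chr4:136143497-136145755) was at 175, 126, 264, 177, 203 and 90.9 CPM and at 213, 2284 and 241 CPM. KPYYF 4891 stood apart from the other 2, which lay within the KPF range. The log2 fold change of Id3 was 2.40 (SE 0.66, unadjusted p = 0.00406, adjusted p = 0.116) and 0.40 without KPYYF 4891, where its unadjusted p was 0.307. Id4 was low in both groups, at 0.662 to 3.47 CPM and 0 to 2.40 CPM.

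**Figure D3:**
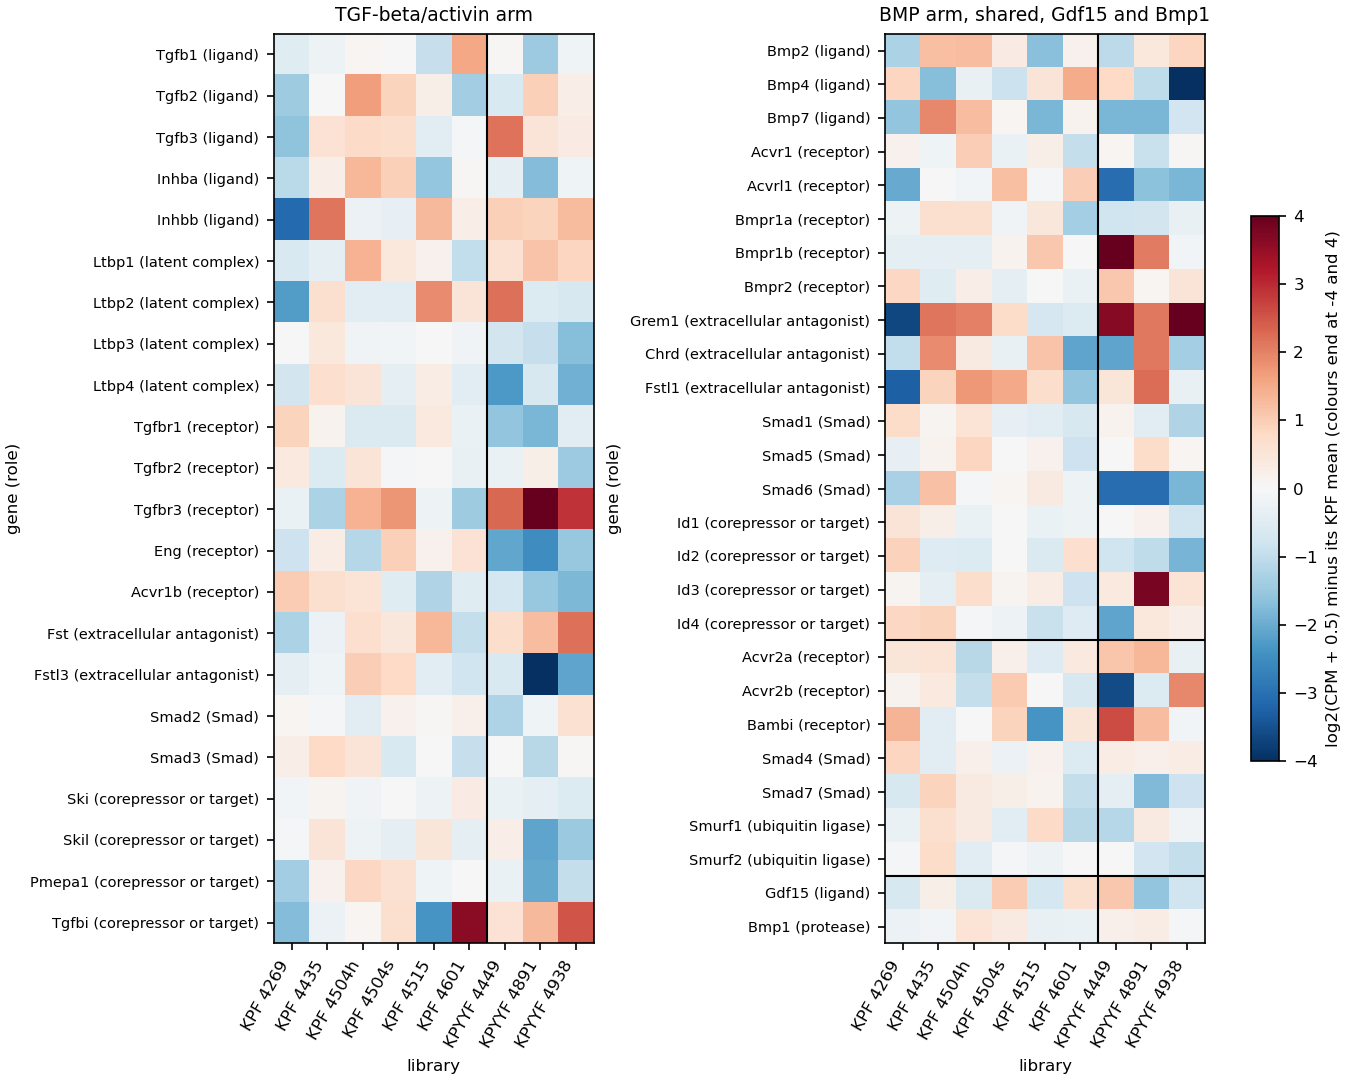
Each tested member (y axis, with its role) in each library (x axis) as log2(CPM + 0.5) minus the mean of the 6 KPF libraries, red for higher and blue for lower, with a black line between KPF and KPYYF. Tgfbr3 and Grem1 are red and Ltbp3, Eng, Acvrl1, Smad6 and Id2 are blue in all 3 KPYYF libraries, while Id3 is deep red in KPYYF 4891 alone.

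Promoters are shown for the members with the smallest p in each direction that have an entry in the RefSeq table of GRCm38.p6. They were chosen by the p-values of these same data, and none had an adjusted p under 0.05 in edgeR's test. The 2 with the smallest p among higher members were Tgfbr3 and Id3, and among lower members Ltbp3 and Ltbp4, and Tgfbr3 is named only. Each line holds the 250 bases before the transcription start in the direction of the gene, and capitals mark a CATTCC motif, the core bound by Tead, the DNA-binding partner of Yap. The windows are chr4:136143572-136143821 (plus strand) for Id3, chr19:5740650-5740899 (plus strand) for Ltbp3 and chr7:27337613-27337862 (minus strand) for Ltbp4, which has 3 entries of which the one that starts farthest upstream is shown. Starts are those of RefSeq, and for Id3 and Ltbp4 they lie downstream of the gene starts of GENCODE given above, so that the Id3 window lies wholly and the Ltbp4 window partly within the gene as GENCODE draws it.
Id3: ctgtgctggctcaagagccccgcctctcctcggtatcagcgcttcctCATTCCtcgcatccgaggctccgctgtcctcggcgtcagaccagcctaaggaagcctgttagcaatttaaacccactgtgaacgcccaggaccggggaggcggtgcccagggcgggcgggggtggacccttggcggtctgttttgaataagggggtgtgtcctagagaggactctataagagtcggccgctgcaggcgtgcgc
Ltbp3: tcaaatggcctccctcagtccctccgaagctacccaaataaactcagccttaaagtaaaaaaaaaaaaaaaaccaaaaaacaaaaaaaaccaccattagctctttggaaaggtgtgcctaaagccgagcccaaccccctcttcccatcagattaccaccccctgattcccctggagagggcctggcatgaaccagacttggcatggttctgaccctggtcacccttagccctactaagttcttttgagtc
Ltbp4: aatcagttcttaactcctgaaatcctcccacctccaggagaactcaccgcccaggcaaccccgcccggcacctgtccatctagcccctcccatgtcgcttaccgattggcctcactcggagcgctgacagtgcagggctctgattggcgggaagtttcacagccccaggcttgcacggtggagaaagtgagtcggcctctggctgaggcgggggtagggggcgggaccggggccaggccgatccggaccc
The CATTCC motif starts 203 bases before the RefSeq start of Id3 and is the single motif found in these windows. The letters searched, on both strands, were CATTCC, GTCTAGAC (a palindromic Smad binding element), GGCGCC (a GC-rich Smad element of BMP target genes) and TGANTCA (the AP-1 site). The table held 47 promoters of 38 members. CATTCC was in 3 of the 47, of Gdf15, Id3 and Id4, and in 12.6% of all 32851 promoters. GGCGCC was in 14 of the 47 and in 9.59% of all promoters. The 13 genes with it were Bmpr1a, Bmpr2, Chrd, Grem1, Id2, Id4, Ltbp4, Ski, Smad5, Smad9, Smurf2, Tgfbi and Tgfbr1. In Ltbp4 those letters lie in the other 2 of its 3 entries, not in the one shown. GTCTAGAC and TGANTCA were in none of the 47 and in 0.167% and 6.75% of all promoters. These shares count letter matches in a short window, and a gene with several entries is counted once per entry. GGCGCC holds only G and C, the promoters were not matched for base composition, and its part in the shares was not tested.

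Among members that serve both arms, no gene had an unadjusted p under 0.05. The activin and BMP type II receptors Acvr2a and Acvr2b had log2 fold changes of 0.79 (SE 0.62) and 0.48 (SE 1.02). Bambi, a decoy receptor without a kinase, was at 0.221 to 9.02 CPM in KPF and 2.95 to 21.9 CPM in KPYYF (log2 fold change 1.36, SE 0.97, adjusted p = 0.544). Smad4, the common partner, was at 79.5 to 213 CPM and 136 to 143 CPM (log2 fold change 0.18, SE 0.32, adjusted p = 0.849). The ubiquitin ligases Smurf1 and Smurf2, which mark receptors and Smads for degradation, had log2 fold changes of -0.33 (SE 0.45) and -0.56 (SE 0.37). Gdf15, a stress-induced cytokine, and Bmp1 had -0.15 (SE 0.65) and 0.12 (SE 0.29).

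Genes of the same pathways outside the members were counted as well. Of 32 other TGF-beta/activin pathway genes 22 were tested, and 2 were higher (background 6.10%) and 3 lower (background 10.0%) at an unadjusted p under 0.05, none with an adjusted p under 0.05 in edgeR's test or limma-voom and 1 higher (background 1.91%) and 3 lower (background 6.58%) in DESeq2. The extremes were Acvr1c, the receptor ALK7, and Itgb6, a subunit of the integrin that frees TGF-beta from its latent complex. Acvr1c had 2 reads in KPF 4504s, none in the other 5 KPF libraries and 0, 102 and 24 reads in KPYYF, or 0, 11.1 and 2.62 CPM (adjusted p = 0.121). Itgb6 was at 10.4, 33.5, 0.204, 22.7, 35.5 and 7.70 CPM in KPF and 1.42, 0 and 0.109 CPM in KPYYF (log2 fold change -5.15, SE 1.59, adjusted p = 0.139). KPF 4504h lay among the KPYYF values of Itgb6. Itgb8, Thbs1 and Strap, which were named after their values were seen, had the other unadjusted p values under 0.05, with log2 fold changes of -3.84, -1.18 and 0.79. Itgb8 and Thbs1 encode further activators of latent TGF-beta, and Strap a protein that binds the receptors.

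Of 32 other BMP and GDF pathway genes 16 were tested, and 2 were higher and 2 lower at an unadjusted p under 0.05 (background 6.10% and 10.0%), with none at an adjusted p under 0.05 in edgeR or limma-voom and 1 higher and 1 lower, Rgmb and Nbl1, in DESeq2 (background 1.91% and 6.58%). Rgma, a BMP co-receptor, was at 0 to 17.3 CPM in KPF and at 12.2, 83.2 and 13.6 CPM in KPYYF (log2 fold change 2.60, SE 1.14, adjusted p = 0.291). Rgmb, a second co-receptor, and Nbl1, a BMP antagonist, were named after their values were seen. They had log2 fold changes of 1.87 (adjusted p = 0.123) and -2.18 (adjusted p = 0.0622), and no KPYYF value of Nbl1 overlapped KPF.

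The response genes outside the members came from a list of 22 TGF-beta and 10 BMP response genes. Of the 22 TGF-beta response genes, 8 were lower and 1 higher at an unadjusted p under 0.05 (background 10.0% and 6.10%), and none had an adjusted p under 0.05 in edgeR or limma-voom. DESeq2 gave 6 lower (background 6.58%), among them Ccn2, Acta2, Lmcd1, Spsb1 and Postn. The median log2 fold change was -0.61, beside -0.07 over all genes tested, and 15 of the 22 were below 0. Lmcd1, a LIM domain protein, was at 5.24, 23.2, 4.18, 31.0, 17.2 and 8.29 CPM in KPF and at 0.237, 1.31 and 0 CPM in KPYYF (log2 fold change -4.81, SE 1.24, adjusted p = 0.0887). Its groups did not overlap. Other lower genes were Ccn2, Tagln, Acta2, Cdkn1a, Spsb1 and Postn, with log2 fold changes from -1.28 to -4.78, and were named after their values were seen. Ccn2 is also a known Yap target, and Tagln, Acta2 and Postn are high in myofibroblasts and smooth muscle. The summed pericyte and smooth muscle markers overlapped at 36.3 to 239 CPM in KPF and 55.5 to 215 CPM in KPYYF, and their part was not tested. Of that marker list Cspg4 was higher (log2 fold change 4.08, adjusted p = 0.0351) and Rgs5 lower (log2 fold change -2.52, adjusted p = 0.113).

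Snai1, a transcription factor known from epithelial to mesenchymal transition, was the TGF-beta response gene with the largest positive log2 fold change. It was at 2.13, 36.2, 33.7, 28.5, 11.0 and 13.4 CPM in KPF and at 39.0, 96.1 and 52.9 CPM in KPYYF. Every KPYYF library was above every KPF library (log2 fold change 1.59, SE 0.64, unadjusted p = 0.0289, adjusted p = 0.241). Snai2, Zeb1 and Zeb2, further such factors named after their values were seen, had log2 fold changes of 1.01, 0.88 and 0.15 with adjusted p from 0.339 to 0.931. Of the 6 tested BMP response genes, 1 was lower at an unadjusted p under 0.05, Prdm16 (log2 fold change -1.56, adjusted p = 0.227), and Msx1 and Tbx3 marked the extremes at 1.28 and -3.55.

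**Figure D4:**
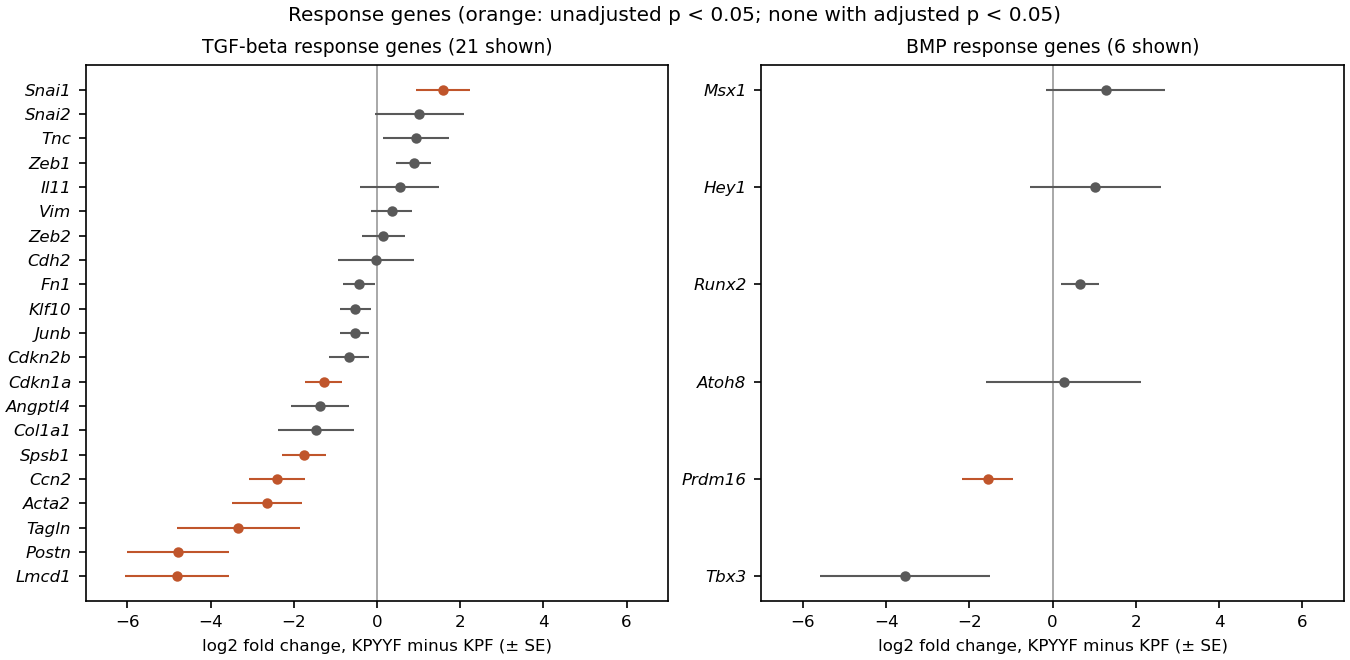
Log2 fold change (KPYYF minus KPF, x axis) with its standard error for the tested response genes outside the members that are reported here (y axis), with TGF-beta response genes on the left and BMP response genes on the right, orange where the unadjusted p is under 0.05. On the left 7 orange points lie below 0, down to Lmcd1 at -4.81, and 1 above, Snai1 at 1.59, and on the right Prdm16 is the single orange point.

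The differences were also fitted in the 6 libraries with a high Xist level, 3 in each group, since the other 3 KPF libraries had few Xist reads. KPF 4504h and 4504s are among the 6, carry the same mouse number and were fitted as separate libraries. All 14 members with an unadjusted p under 0.05 kept their direction in this fit. They were chosen by p in the fit of all 9 libraries, which holds these same 6, so this is no separate support. Tgfbr3 was at 2.51 on the log2 scale, Bmpr1b at 5.69, Grem1 at 1.74, Tgfbr1 at -0.84 and Id2 at -0.84 in these libraries. The unadjusted p of edgeR was not under 0.05 there for Tgfbr1, Eng and Smad6.

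**Figure D5:**
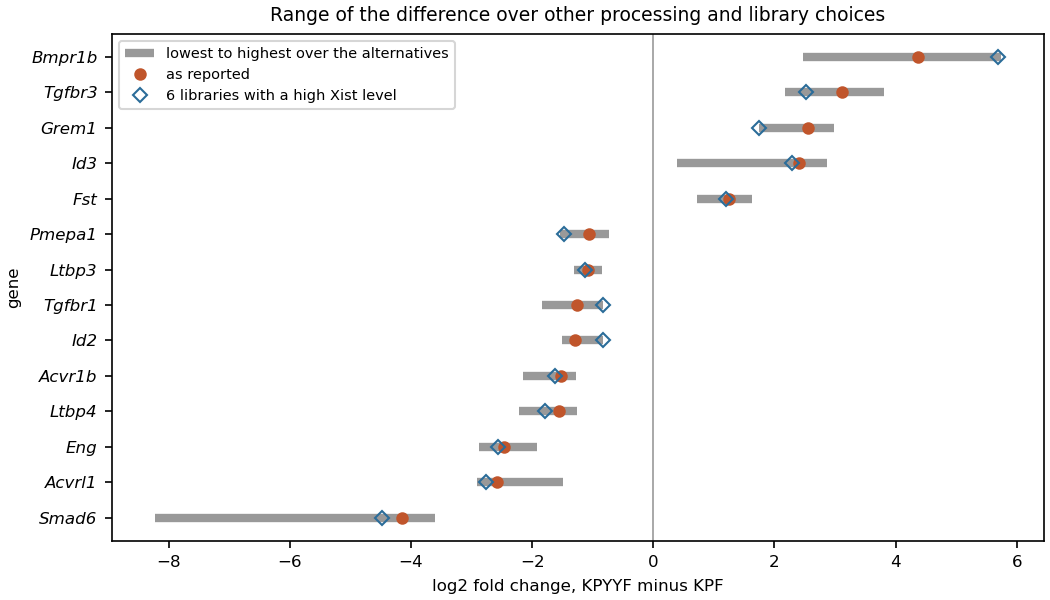
Log2 fold change (KPYYF minus KPF, x axis) of the 14 members with an unadjusted p under 0.05 (y axis), as an orange point for all 9 libraries, a grey bar from the lowest to the highest value over the alternatives and a blue diamond for the 6 libraries with a high Xist level. No bar crosses 0, and that of Id3 reaches down to 0.40, its value without KPYYF 4891. The alternatives share libraries with the fit by which these members were chosen, so the kept direction is no separate support.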

How the data were processed

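RNA from FACS-sorted cells was made into 3′ end libraries (Lexogen QuantSeq 3′ Fwd, per the labels). The authors deposited raw counts per Ensembl gene for each library, and the submitters' processing notes name STAR, HTSeq and the build mm10, with no versions. The strand setting is not given in the sources used here, and the methods text describes BeadChip hybridization, which does not match whole-number counts. Reads on genes were 38.5 to 42.0% of each file in KPF and 37.3 to 38.2% in KPYYF. Reads without a unique alignment were 43.8 to 48.5% in KPF and 49.2 to 53.4% in KPYYF. Genes with near-identical copies may therefore be undercounted. Neither share overlapped between the groups, and the part of this difference in the results was not tested.

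Symbols came from GENCODE M21 (47224 of 47643 identifiers). The 14105 genes that summed to 100 counts or more were scaled by TMM (factors 0.832 to 1.08) and tested with edgeR 4.0.16's quasi-likelihood test in R 4.3.3, two-sided, without covariates, with p-values adjusted over all of them by Benjamini-Hochberg and a threshold of 0.05. The SE is the fold change on the log2 scale over the root of F. The biological coefficient of variation was 0.825 in common. Exact permutation tests used all 84 splits of log2 CPM (prior count 2), with a smallest p of 0.0119. A count of 0 allows up to 3 reads, or 0.291 to 0.436 CPM, which covers counting error only.

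Alternatives were RLE and upper quartile scaling, DESeq2 1.42.0, limma-voom 3.58.1 with quality weights, no filter, filterByExpr, 4504h and 4504s summed, the 6 libraries with a high Xist level, each library left out and, chosen after seeing the data, KPF 4504s, KPF 4601 and KPYYF 4449 left out together. The scripts were tested on simulated data. Every member is named, and values of every library are given for those with an unadjusted p under 0.05 or no overlap. Of other lists, genes with an adjusted p under 0.05 and both extremes are named. Members and lists were chosen with earlier results of these data known. Some alleles and genes are not reported here. Promoter sequences are from RefSeq, GRCm38.p6.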

Additional observations from a re-analysis of the deposited data

Results flagged for a closer look

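Ltbp3 in KPF held a library far from the others. KPF 4435 was at 315 CPM and the other 5 KPF libraries at 211 to 235 CPM. On the log2 CPM scale the gap to the nearest library was 0.731 of the whole range, above Dixon's critical value for 6 libraries. It was the single gap of this kind among 49 members, and chance flags about 1 in 20 groups. The 3 KPYYF libraries, at 72.1 to 141 CPM, lay below all 6. Without KPF 4435 the log2 fold change of Ltbp3 was -0.98 (adjusted p = 0.164 in edgeR's test).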

How the results depend on the processing

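No paired analysis was possible because the labels give no pairing of KPF with KPYYF libraries. Of 49 tested members 35 kept their direction in every alternative in which they could be fitted, among them all 14 with an unadjusted p under 0.05. There were 18 such alternatives, but 16 for Bmp7 and 15 for Bmpr1b. The 14 were chosen by p in a fit that shares libraries with every alternative, so their kept direction is no separate support. Members called by adjusted p numbered 1 higher and 6 lower with DESeq2, 1 higher (Id3) and 1 lower (Skil) without KPYYF 4449, 1 higher (Tgfbr3) and 1 lower (Skil) with KPF 4504s, KPF 4601 and KPYYF 4449 left out, and 0 in the other fits. With those 3 left out, 3 members were higher at an unadjusted p under 0.05. With each library left out in turn, members at an unadjusted p under 0.05 numbered 3 to 6 higher and 4 to 11 lower, with 3 higher without KPYYF 4449 or KPYYF 4891 and 4 lower without KPYYF 4891. Genes called over the whole table were 43 higher and 112 lower. They were 269 and 928 with DESeq2, 88 and 219 without a filter, 25 higher with 4504h and 4504s summed, 39 lower with limma-voom, 6 and 31 in the libraries with a high Xist level, and 177 lower with the 3 libraries left out. With each library left out they were 6 to 75 higher and 13 to 198 lower. The causes were not tested.

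Log2 fold changes that changed sign were near 0 or had wide errors. With limma-voom they became 0.12 for Tgfb2, -0.18 for Ltbp2, 0.18 for Bmp2, -0.54 for Chrd, -0.40 for Acvr2b, -1.10 for Cdh5, -3.68 for Ins2 and -1.55 for Pnlip. With 4504h and 4504s summed they became 0.22 for Tgfb2 and 0.012 for Bmp2. In the libraries with a high Xist level they became 0.024 for Smad2, 0.47 for Bmp4, -0.23 for Chrd, -0.20 for Fstl1, -0.055 for Smad5, -0.12 for Bmp1, -0.48 for Cdh5 and 0.16 for Ptprc. With the 3 libraries left out they became 0.17 for Tgfb2, -1.27 for Ltbp2, 0.38 for Smad2, 0.25 for Bmp2, 0.036 for Id4, -1.59 for Cdh5, 0.35 for Csf1r and -0.35 for Pnlip. With single libraries left out, the ranges that crossed 0 were -0.52 to 0.41 for Tgfb2, -1.13 to 1.12 for Ltbp2, -0.64 to 0.25 for Smad2, -0.44 to 2.06 for Tgfbi, -0.52 to 0.27 for Bmp2, -3.87 to 0.86 for Chrd, -0.60 to 0.86 for Fstl1, -0.048 to 0.44 for Smad5, -0.37 to 0.070 for Id1, -0.85 to 0.24 for Id4, -1.69 to 1.06 for Acvr2b and -1.33 to 0.28 for Gdf15. Outside the members they were -1.87 to 0.54 for Cdh5, -6.07 to 1.45 for Ctrb1, -7.93 to 0.72 for Ins2, -3.04 to 2.20 for Msx1 and -4.69 to 5.54 for Pnlip. Depth limited Smad6, Eng, Acvrl1, Bmpr1b, Bmp7, Chrd and Id4, which had fewer than 30 reads in most KPYYF libraries.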

Other observations

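Ratios of reads between 3 pairs of members were chosen after the values were seen and are given without a test. The ratio of Grem1 to the sum of Bmp2 and Bmp4 was 0.0220, 0.715, 0.606, 0.462, 0.337 and 0.137 in KPF 4269, 4435, 4504h, 4504s, 4515 and 4601 and 5.09, 1.16 and 3.54 in KPYYF 4449, 4891 and 4938. Every KPYYF ratio was above every KPF ratio, although Grem1 itself overlapped between the groups. The ratio of Tgfbr3 to Tgfbr2 was 0.0435 to 0.397 in KPF and 0.655 to 2.29 in KPYYF. The ratio of Fst to Inhba overlapped, at 0.193 to 2.97 in KPF, with KPF 4515 highest, and 0.847 to 3.17 in KPYYF. The ratios compare libraries and not the amounts of the proteins.

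The marker lists of other cells gave the following extremes of log2 fold change. They were Sox9 at -0.56 and Muc1 at -4.11 among epithelial markers, Pdgfra at 2.90 and C3 at -2.56 among fibroblast markers, Ptprc at -0.80 and Csf1r at -3.45 among immune markers, and Pnlip at 1.93 and Ctrb1 at -1.80 among acinar markers. Of islet markers Ins2 was at 0.13, and Iapp had no reads in KPYYF and was at least 14.4-fold lower against 3 reads a library. Of Schwann cell markers 2 of 5 were tested, Mbp at -2.87 and Ncmap at -2.57. With the exception of Muc1, the adjusted p of these genes in edgeR's test was over 0.05.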
